A study of Saccharomyces cerevisiae with 10 samples.

Results

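The genes described here are 10 genes of branched-chain amino acid synthesis in the budding yeast Saccharomyces cerevisiae: ILV1, ILV2, ILV3, ILV5, ILV6, LEU1, LEU4, LEU9, BAT1 and BAT2. They are listed by feature ID as genes of the pathway, a rule that uses no measured value, and all 10 are among the 6663 features of the table. RNA was sequenced in set1∆, which lacks the gene of the histone H3 methyltransferase Set1, in set5∆, which lacks that of the histone H4 methyltransferase Set5, in set1∆ set5∆, which lacks both, in SET5 Y402A, in which Set5 carries a substitution, and in the wild type (WT). All 5 strains are BY4741, a haploid a-mating laboratory strain known to carry deletion alleles of HIS3, LEU2, MET17 and URA3, so the wild type and every mutant lack the LEU2 step of leucine synthesis. Cells grew in YPD, a rich medium that contains amino acids, at 30 °C to mid-log phase, and the labels list 2 replicates per strain without saying whether they came from separate cultures. Expression values are read here as FPKM, a fragment density scaled to transcript length and library size, although no unit is named. How the strains were scaled to each other is not stated, and both replicates of a strain are combined into 1 value. Spread between replicates is thus not known for any ratio, no test could be run, and sequencing depth is unknown too.

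Leucine, isoleucine and valine are made by enzymes that work mostly in mitochondria and are shared between the 3 amino acids. Ilv1 opens the isoleucine branch by deaminating threonine. Acetolactate synthase, made of the catalytic subunit Ilv2 and the regulatory subunit Ilv6, the reductoisomerase Ilv5 and the iron-sulfur dehydratase Ilv3 then serve isoleucine and valine alike. The leucine branch leaves the valine route through the isopropylmalate synthases Leu4 and Leu9, the iron-sulfur isomerase Leu1 and the dehydrogenase Leu2. The mitochondrial transaminase Bat1 and the cytosolic transaminase Bat2 carry out the last step of all 3 routes and the first step of breakdown. The transcription factor Leu3 acts on many of these genes, as an activator when it binds isopropylmalate, the product of Leu4 and Leu9, and Gcn4 acts on amino acid synthesis genes in general.

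The strain labels were checked on the targeted genes. SET1 was at 0.0328 FPKM in set1∆ and 0.0324 FPKM in set1∆ set5∆, and between 24.2 and 25.6 FPKM in the other strains. SET5 was at 0.0545 FPKM in set5∆ and 0.0167 FPKM in set1∆ set5∆, and between 34.6 and 41.8 FPKM in the others. Of the genes deleted in BY4741, LEU2 lay between 0.368 and 0.707 FPKM and MET17 between 0.0 and 0.0926 FPKM. URA3 was sought but not found among the features. HIS3 did not look deleted by its level, at 134 FPKM in set1∆, 77.9 in set5∆, 132 in set1∆ set5∆, 76.8 in SET5 Y402A and 84.9 in the wild type; the BY4741 allele is known as a partial deletion, and which part of HIS3 these reads cover was not tested. The 6 a-cell markers ranged from 65.4 FPKM for STE6 to 103882 FPKM for MFA1. The 4 alpha-cell markers were low but not at 0, with STE3 at 1.99 to 5.80 FPKM, SAG1 at 19.3 to 25.4 FPKM and MF(ALPHA)2 at 23.4 to 32.9 FPKM. MF(ALPHA)1 was at 6.71 FPKM in set1∆, 2.86 in set5∆, 8.83 in set1∆ set5∆, 2.06 in SET5 Y402A and 1.19 in the wild type. Ratios are log2((FPKM + 1) / (FPKM + 1)), and the 6541 features whose mean over the strains reached 1 FPKM form the background. All 10 genes passed that filter. They are also among the 1805 features whose mean reached 100 FPKM, called abundant below and given as a second background that was added after the values were seen. A feature is counted as higher or lower when its log2 ratio is at least 0.32 from 0, which is 25% more or 20% less.

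The upstream sequences are shown because the DNA pattern read by Leu3 stands before several of the genes, and because BAT1 lies beside SET5, the gene removed in 2 of the strains. In the R64 reference annotation (RefSeq), BAT1 (YHR208W) and SET5 (YHR207C) are divergent neighbours with 1046 bases between their coding sequences. No source used here names the build behind the table, so the table was joined to R64 by feature ID alone. The 250 bases before the BAT1 start codon and the first 50 bases of its coding sequence, chrVIII:517282-517581 on the plus strand, read as follows, with the Gcn4 letters, the Leu3 letters and the start codon in capitals.

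BAT1: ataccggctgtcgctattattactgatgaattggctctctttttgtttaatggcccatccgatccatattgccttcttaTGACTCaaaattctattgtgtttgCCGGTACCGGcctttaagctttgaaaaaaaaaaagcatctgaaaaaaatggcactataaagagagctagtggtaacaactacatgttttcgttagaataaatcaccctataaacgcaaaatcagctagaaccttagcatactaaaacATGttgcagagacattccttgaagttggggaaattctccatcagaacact

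The Leu3 letters CCGNNNNCGG, which read the same on both strands, were found in the 500 bases before the start codon of 6 of the 10 genes, against 3.28% of 6000 coding genes. The stricter form CCGGNNCCGG, which is contained in the first, was found before BAT1, LEU1, ILV2 and ILV5, and before 0.267% of coding genes. The matches are shown with 10 bases on each side, in the direction of the gene, with the matched letters in capitals.
BAT1 (chrVIII:517375-517404, plus strand): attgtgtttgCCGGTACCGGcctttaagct
LEU1 (chrVII:478850-478879, minus strand): aacgaaaattCCGGGACCGGcgaaatttgc
LEU1, second match (chrVII:478820-478849, minus strand): ccggttttgtCCGTAACCGGcttcatgagt
ILV2 (chrXIII:483606-483635, plus strand): ccggagcctgCCGGTACCGGcttggcttca
ILV5 (chrXII:839611-839640, minus strand): gcggtctcctCCGGTACCGGttctgccacc
BAT2 (chrX:705400-705429, plus strand): cgttctttttCCGCTTTCGGgtgacactta
LEU9 (chrXV:522740-522769, plus strand): ccatcatggtCCGGTAACGGtcgtagtgaa
The matched letters begin 147 bases before the start codon in BAT1, 217 and 187 in LEU1, 468 in ILV2, 377 in ILV5, 334 in BAT2 and 277 in LEU9. BAT1, ILV2 and ILV5 share the same matched letters, and the bases around them differ. The Gcn4 letters TGACTC, searched on both strands, were found before BAT1, LEU1, LEU4, LEU9, ILV1, ILV3, ILV5 and ILV6, and before 12.7% of coding genes, and in these genes they overlapped no Leu3 match. These are matches of letters in a reference genome, and binding was not measured.

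The genes were abundant and none was near 0. In the wild type they ranged from 123 FPKM for LEU9 to 1224 FPKM for ILV5, and each stood above at least 76.3% of the compared features. The 10 values summed to 3603 FPKM in set1∆, 4083 in set5∆, 3680 in set1∆ set5∆, 3556 in SET5 Y402A and 3901 in the wild type. BAT1 had the widest spread, with its highest strain 1.81 times its lowest on FPKM + 1, followed by LEU1 at 1.57 times and ILV5 at 1.48 times. LEU4 had the narrowest, at 1.10 times.

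**Figure D1:**
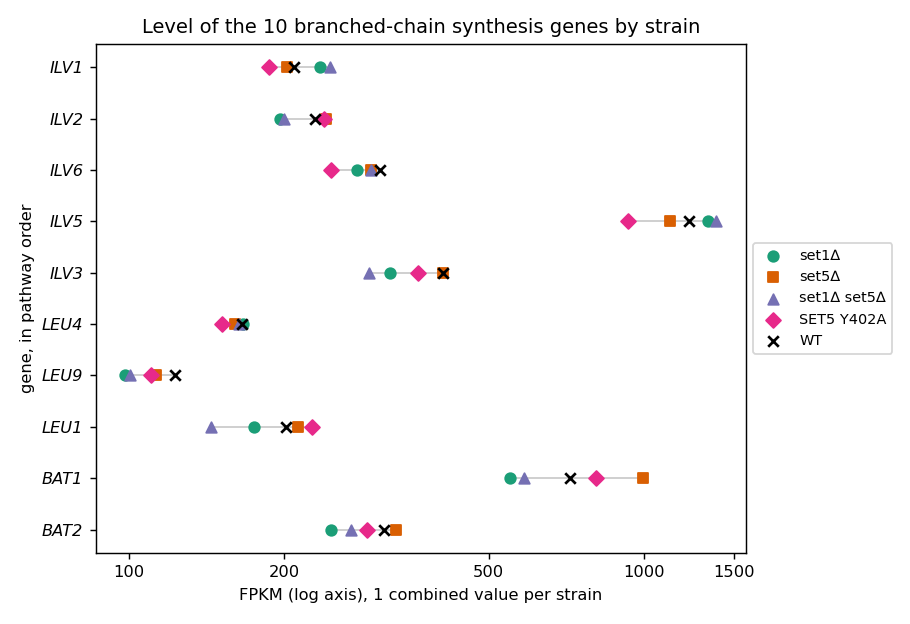
FPKM of the 10 genes (log axis, 1 combined value per strain, no error available), in pathway order, with a grey line from the lowest to the highest strain. ILV5 and BAT1 are the most abundant, LEU4 values lie close together, and BAT1 spans 549 to 996 FPKM.

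In what follows each position is that of the R64 coding sequence, which is a single exon in all 10 genes. The first gene of the isoleucine branch, ILV1 (YER086W, chrV:328477-330207), was at 235 FPKM in set1∆, 203 in set5∆, 246 in set1∆ set5∆, 187 in SET5 Y402A and 210 in the wild type. Its highest values were those of both strains without SET1. ILV5 (YLR355C, chrXII:838066-839253), the reductoisomerase gene, had the same order of strains, with 1335 FPKM in set1∆, 1124 in set5∆, 1383 in set1∆ set5∆, 933 in SET5 Y402A and 1224 in the wild type.

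The dehydratase gene ILV3 (YJR016C, chrX:464451-466208), which follows ILV5 in the route, ran the other way in the strains without SET1. In SET5 Y402A both genes were below the wild type. ILV3 was at 322 FPKM in set1∆, 407 in set5∆, 293 in set1∆ set5∆, 365 in SET5 Y402A and 407 in the wild type. The FPKM ratio of ILV5 to ILV3 was 4.15 in set1∆, 2.76 in set5∆, 4.72 in set1∆ set5∆, 2.56 in SET5 Y402A and 3.01 in the wild type, so consecutive steps of the same route were furthest apart in the strains without SET1. This ratio within a strain does not change when a whole column is scaled by a single factor, but quantile normalization can change it.

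The subunits of acetolactate synthase did not keep 1 ratio across strains. ILV2 (YMR108W, chrXIII:484084-486147), the catalytic subunit, was at 197 FPKM in set1∆, 241 in set5∆, 200 in set1∆ set5∆, 239 in SET5 Y402A and 230 in the wild type. ILV6 (YCL009C, chrIII:104619-105548), the regulatory subunit, was at 278 FPKM in set1∆, 295 in set5∆, 296 in set1∆ set5∆, 247 in SET5 Y402A and 308 in the wild type. The FPKM ratio of ILV2 to ILV6 was 0.965 in SET5 Y402A, against 0.676 to 0.818 in the other 4 strains.

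In the leucine branch, the main synthase gene LEU4 (YNL104C, chrXIV:424895-426754) was at 167 FPKM in set1∆, 161 in set5∆, 164 in set1∆ set5∆, 152 in SET5 Y402A and 166 in the wild type. Its paralogue LEU9 (YOR108W, chrXV:523027-524841) was at 98.5 FPKM in set1∆, 113 in set5∆, 101 in set1∆ set5∆, 110 in SET5 Y402A and 123 in the wild type, so every mutant was below the wild type. LEU1 (YGL009C, chrVII:476313-478652), the isomerase gene that follows, was at 175 FPKM in set1∆, 213 in set5∆, 145 in set1∆ set5∆, 227 in SET5 Y402A and 202 in the wild type. The coding sequences of LEU4 and LEU9 are 79.4% identical in aligned bases, and every 50-base word of each occurs once in the R64 genome.

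Of the transaminase genes, BAT1 varied most between strains. BAT1 (chrVIII:517532-518713) was at 549 FPKM in set1∆, 996 in set5∆, 584 in set1∆ set5∆, 806 in SET5 Y402A and 719 in the wild type. BAT2 (YJR148W, chrX:705744-706874) was at 247 FPKM in set1∆, 330 in set5∆, 270 in set1∆ set5∆, 290 in SET5 Y402A and 313 in the wild type. Both genes were lowest in set1∆ and highest in set5∆. BAT1 exceeded BAT2 by 2.22 times in set1∆, 3.02 times in set5∆, 2.17 times in set1∆ set5∆, 2.78 times in SET5 Y402A and 2.29 times in the wild type. The coding sequences of this pair are 72.2% identical in aligned bases, and no 50-base word is shared with another place in the R64 genome, nor does any of the 10 genes overlap another annotated coding gene there.

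The effect of SET1 loss was read from set1∆ against the wild type. BAT1 (-0.39), BAT2 (-0.34) and ILV3 (-0.34) were lower past the limit, LEU9 (-0.31) lay just short of it, and ILV1 (0.17) and ILV5 (0.13) were slightly higher. Thus 3 of 10 genes counted as lower and 0 as higher. Of all compared features 10.4% were lower and 16.3% higher, and of the abundant ones 13.9% were lower and 7.04% higher. After centring on their own median, 7.87% of the abundant features were lower and 11.0% higher. With quantile-normalized columns 13.5% of all features were lower and 12.0% higher, and with columns scaled to the same sum 5.55% were lower and 23.3% higher. The median of the 10 genes was -0.22, beside -0.003 over all features and -0.09 over the 1805 abundant ones, of which 1201 were below 0. The 3 genes stand between -0.23 and -0.31 with columns scaled to the same sum, with quantile normalization or with centring on the abundant features, and then 0 of 10 pass the limit.

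**Figure D2:**
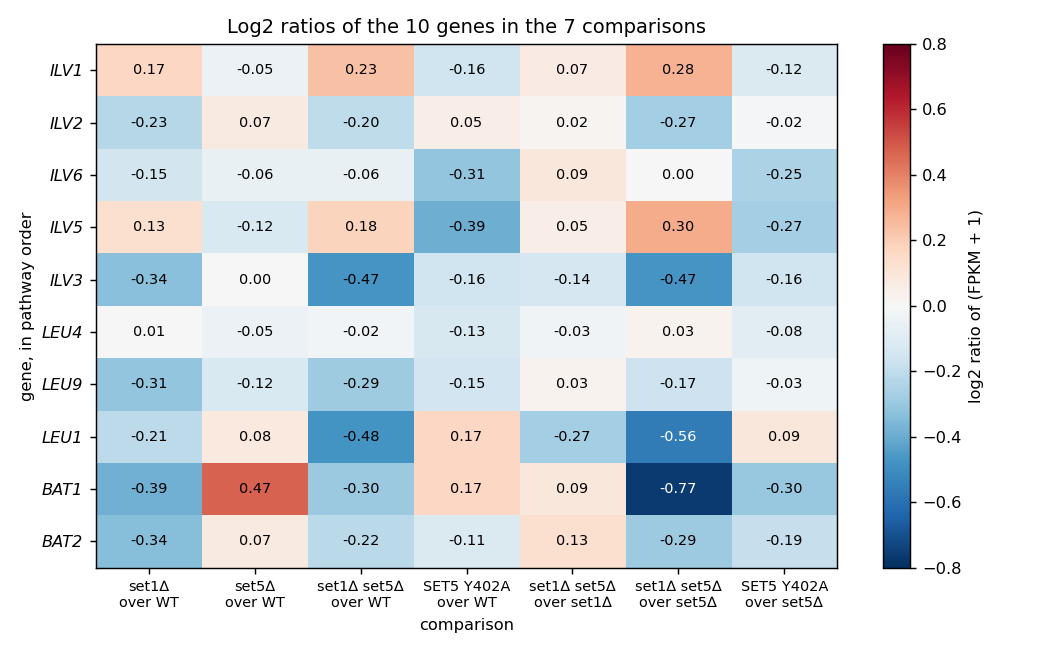
Log2 ratios of FPKM + 1 for the 10 genes (rows, pathway order) in the 7 comparisons (columns), red where the strain named first is higher and blue where it is lower. The largest ratios are those of BAT1 (-0.77) and LEU1 (-0.56) in set1∆ set5∆ over set5∆, and the highest is BAT1 in set5∆ over WT (0.47).

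The strain without both enzymes was set beside the wild type in the same way. LEU1 (-0.48) and ILV3 (-0.47), the genes of the iron-sulfur enzymes of the pathway, were lower past the limit, followed by BAT1 (-0.30) and LEU9 (-0.29). ILV1 (0.23) and ILV5 (0.18) were again on the higher side, and LEU4 stood at -0.02. Thus 2 of 10 genes counted as lower and 0 as higher, beside 12.8% and 18.6% of all features and 20.8% and 7.53% of abundant ones, or 8.37% and 12.9% of these after centring on their own median. With quantile-normalized columns 14.9% of all features were lower and 14.2% higher, and with columns scaled to the same sum 4.14% were lower and 34.6% higher. The median was -0.21 for the 10 genes, 0.005 for all features and -0.13 for abundant features, and 1236 of the 1805 abundant features were below 0. Scaling all columns to the same sum shifts the median of all features to 0.20 and that of the 10 genes to -0.0060. On that scale LEU1 is at -0.28, ILV3 at -0.27, ILV1 at 0.43 and ILV5 at 0.38, and LEU1 and ILV3 are then within the limit while ILV1 and ILV5 are past it. LEU4, ILV2 and ILV6 change sign between these scalings.

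**Figure D3:**
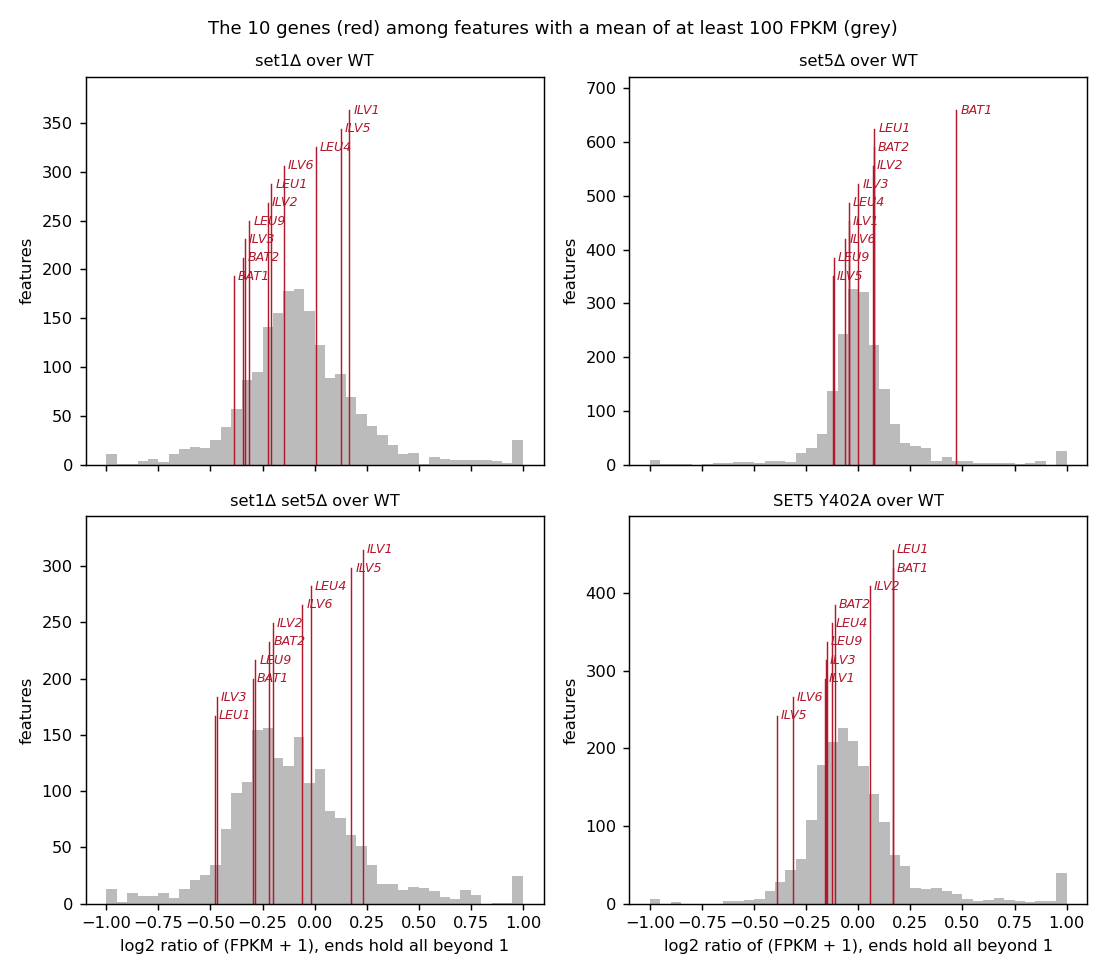
Histograms of log2 ratios of FPKM + 1 for the 1805 features that average 100 FPKM or more (grey) in the 4 mutants over the wild type, with the 10 genes as red lines. In set1∆ and set1∆ set5∆ the grey peak lies below 0 and most of the 10 genes lie within it, while BAT1 stands in the upper tail in set5∆ and ILV5 in the lower tail in SET5 Y402A.

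SET5 loss alone left 9 of the 10 genes at log2 ratios between -0.12 and 0.08 and BAT1 outside that range. BAT1 was at 996 FPKM in set5∆, against 719 FPKM in the wild type, a log2 ratio of 0.47 that lay above 96.4% of all features and 96.7% of abundant ones. It was the single gene of the 10 past the limit, while 6.31% of all features were higher and 3.64% lower, and 5.48% of abundant features were higher and 2.33% lower. The next genes were LEU1 (0.08), BAT2 (0.07) and ILV2 (0.07), and the lowest were ILV5 (-0.12) and LEU9 (-0.12). The median of the 10 was -0.02, beside 0.000 over all features.

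BAT1 is the nearest gene on the start-codon side of SET5, so its ratio was set beside those of the genes around it. On the same side, CRG1, a methyltransferase gene, was at 26.0 FPKM in set5∆, against 17.5 FPKM in the wild type (0.54), and YHR210C was at -0.06 and FLO5, a flocculin gene with near-identical family members that can share its reads, at 0.16. YHR212W-A, a short open reading frame, was at 17.0 FPKM in set5∆, against 8.62 FPKM in the wild type (0.90). On the other side, SKN7, a transcription factor gene, stood at 0.17, the kinase gene SCH9 at -0.17, MNL1 at -0.16, RPS4B at -0.07 and SMN1 at 0.00. The comparisons in which SET5 was altered in other ways gave smaller BAT1 ratios. In SET5 Y402A, which keeps the SET5 transcript, CRG1 stood at 0.44 and BAT1 at 0.17 relative to the wild type. In set1∆ set5∆ relative to set1∆, where the same gene is missing, BAT1 stood at 0.09 and CRG1 at 0.12. YHR212W-A stood at 0.74 in SET5 Y402A over the wild type and at -0.48 in set1∆ set5∆ over set1∆, the widest range among these neighbours. The genes beside SET1 give a second case of a deleted neighbour. ORC6, on the start-codon side of SET1, was at 0.37 in set1∆ and MSH1, on the other side, at -0.05, and the remaining 8 of the 10 nearest lay between -0.84 for NDT80 and 0.27 for CIA2. Whether the removal of SET5 itself acts on BAT1 was not tested.

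**Figure D4:**
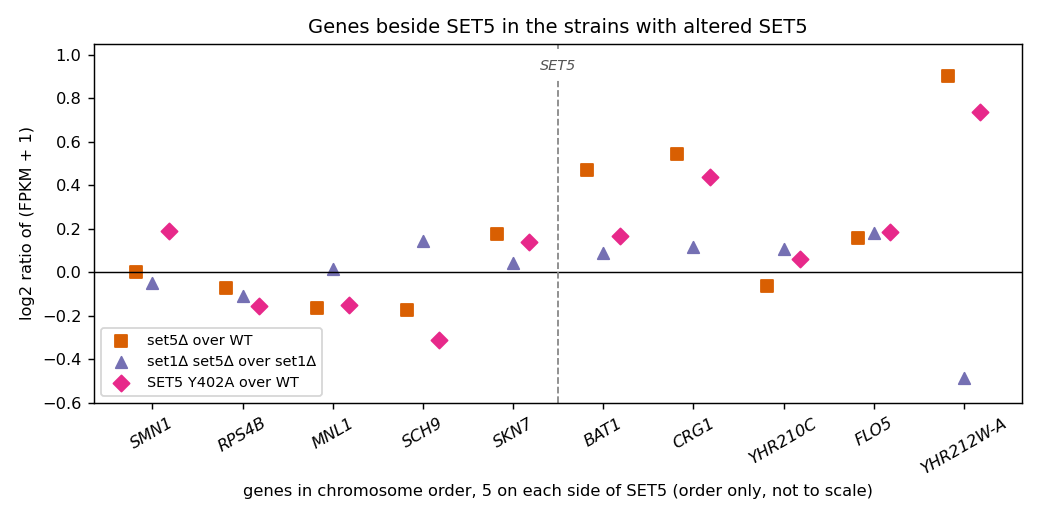
Log2 ratios of FPKM + 1 for the 5 genes on each side of SET5, in chromosome order, for set5∆ over WT, set1∆ set5∆ over set1∆ and SET5 Y402A over WT. BAT1 and CRG1 are at 0.47 and 0.54 in set5∆ over WT and at 0.09 and 0.12 in set1∆ set5∆ over set1∆.

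SET5 loss in cells that already lack SET1 gave small differences. In set1∆ set5∆ over set1∆ 0 of 10 genes passed the limit, beside 3.94% of all features higher and 2.46% lower, and 2.71% and 2.88% of abundant ones. With columns scaled to the same sum 6.86% of all features were higher and 1.65% lower. LEU1 had the largest difference of the 10, at 145 FPKM in set1∆ set5∆, against 175 FPKM in set1∆ (-0.27). That value lay above 3.56% of all features. ILV3 stood at -0.14 and BAT2 at 0.13, and the median was 0.04.

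The interaction, which is the log2 ratio of the double deletion to the wild type minus those of both single deletions, sums up how far SET5 loss differed between the backgrounds. It was -0.38 for BAT1 and -0.35 for LEU1, and between -0.14 and 0.17 for the other 8 genes, with a median of 0.04. The value of BAT1 lay above 6.44% of all features and that of LEU1 above 7.48%. With columns scaled to the same sum the values are -0.25 for BAT1 and -0.22 for LEU1, on a scale where the median over the 10 genes is 0.17.

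SET1 loss in cells that already lack SET5 held the largest single ratio of the 10 genes among the 7 comparisons. In set1∆ set5∆ over set5∆, BAT1 was at 584 FPKM in the double deletion, against 996 FPKM in set5∆ (-0.77), LEU1 was at -0.56 and ILV3 at -0.47. These 3 of 10 genes counted as lower and 0 as higher, beside 15.1% of all features lower and 18.7% higher, and 24.8% of abundant features lower and 8.14% higher. After centring on their own median, 11.9% of abundant features were lower and 14.6% higher. With quantile-normalized columns 16.1% of all features were lower and 15.7% higher, and with columns scaled to the same sum 4.78% and 38.7%. ILV5 (0.30) and ILV1 (0.28) were on the higher side and pass the limit with quantile normalization, at 0.51 for ILV5 and 0.37 for ILV1. With columns scaled to the same sum LEU1 (-0.32) lies just short of the limit and ILV3 (-0.23) further short, ILV5 (0.54) and ILV1 (0.52) are past it, and LEU9 changes sign. The median of the 10 was -0.22, and it was 0.018 with columns scaled to the same sum, where the median of all features is 0.23. Because the set5∆ column carries the high BAT1 value, the BAT1 ratio here and that in set5∆ over WT share it.

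SET5 Y402A against the wild type showed another order of genes. ILV5 was at 933 FPKM in SET5 Y402A, against 1224 FPKM in the wild type (-0.39), a ratio above 3.53% of all features and 2.71% of abundant ones. ILV6 (-0.31) lay just short of the limit, and ILV1 (-0.16), ILV3 (-0.16) and LEU9 (-0.15) were slightly lower. LEU1 (0.17) and BAT1 (0.17) were slightly higher. Thus 1 of 10 genes counted as lower and 0 as higher, while 5.55% of all features were lower and 9.88% higher, and 5.37% of abundant features were lower and 7.65% higher. After centring on their own median, 3.10% of abundant features were lower and 8.70% higher. The median was -0.14, beside -0.007 over all features and -0.05 over abundant ones.

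Set against set5∆ directly, SET5 Y402A was lower in 9 of 10 genes, with a median of -0.14, and LEU1 (0.09) was the exception. Of all features 3394 of 6541 were also below 0, with a median of -0.006, and of the abundant ones 1252 of 1805, with a median of -0.05. LEU9 (-0.03) and ILV2 (-0.02) were close enough to 0 to stand above it with columns scaled to the same sum, ILV2 also with quantile normalization. The largest differences were those of BAT1 (-0.30), at 806 FPKM in SET5 Y402A, against 996 FPKM in set5∆, ILV5 (-0.27) and ILV6 (-0.25). None reached the limit, beside 5.47% of all features higher and 2.8% lower, and 3.38% and 2.05% of abundant ones. The BAT1 ratio lay above 3.20% of all features, that of ILV5 above 4.08% and that of ILV6 above 4.77%.

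Genes that surround the pathway were taken as lists, with earlier results of these data known, and are given as counts past the limit. The regulators had no ratio past the limit, but GCN4 came close to it. LEU3 was at 25.9 FPKM in set1∆, 31.3 in set5∆, 26.9 in set1∆ set5∆, 29.5 in SET5 Y402A and 29.6 in the wild type. GCN4 was at 1373 FPKM in set1∆, 1746 in set5∆, 1406 in set1∆ set5∆, 1698 in SET5 Y402A and 1551 in the wild type. None of LEU3, GCN4 and GCN2, the kinase that senses uncharged tRNA, passed the limit in any mutant over the wild type. In set1∆ set5∆ over set5∆ GCN4 stood at -0.31, just short of the limit. GCN4 is known to be controlled mainly through translation of its messenger RNA, which was not measured.

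Carriers and side branches held the gene whose values stood lowest in set1∆ and set1∆ set5∆ among these lists. OAC1, the mitochondrial carrier of oxaloacetate that also exports isopropylmalate, was at 145 FPKM in set1∆, 221 in set5∆, 129 in set1∆ set5∆, 206 in SET5 Y402A and 233 in the wild type. Relative to the wild type it stood at -0.68 in set1∆ and -0.85 in set1∆ set5∆, against -0.07 in set5∆ and -0.18 in SET5 Y402A. OAC1 also carries the Leu3 letters, 484 bases before its start codon.
OAC1 (chrXI:216850-216879, plus strand): ccgaaagatgCCGGAAACGGtcttaggccg
MMF1, which encodes a mitochondrial imine deaminase, was at -0.49 in set1∆ and -0.61 in set1∆ set5∆, and the pyruvate carrier gene MPC1 at -0.27 in set1∆ and -0.46 in set1∆ set5∆. LEU5, a mitochondrial carrier gene linked to coenzyme A, was above the wild type in every mutant. It stood at 0.61 in set1∆, 0.27 in set5∆, 0.71 in set1∆ set5∆ and 0.72 in SET5 Y402A. Its wild-type value of 10.8 FPKM was its lowest and enters each of these ratios. Of the 10 genes in this list 1 was higher and 2 lower in set1∆, 1 higher and 3 lower in set1∆ set5∆, 1 higher and 0 lower in SET5 Y402A, and none passed in set5∆. Of all features 16.3% were higher and 10.4% lower in set1∆ and 18.6% and 12.8% in set1∆ set5∆. The shares were 9.88% and 5.55% in SET5 Y402A and 6.31% and 3.64% in set5∆. Of abundant features 13.9% were lower in set1∆ and 20.8% in set1∆ set5∆. Whether the counts of so short a list differ from these shares was not tested.

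Of the amino acid uptake and sensing genes 5 of 10 were higher and 2 lower in set1∆, beside 16.3% and 10.4% of all features. In set1∆ set5∆ 6 were higher and 1 lower, beside 18.6% and 12.8% of all features. In set5∆ and in SET5 Y402A none passed, beside 6.31% higher and 3.64% lower in set5∆, and 9.88% and 5.55% in SET5 Y402A. Of abundant features 7.04% were higher and 13.9% lower in set1∆, and 7.53% and 20.8% in set1∆ set5∆. The 5 genes higher in set1∆ were scarcer, at 12.0 to 43.1 FPKM in the wild type, and the 2 lower ones are abundant. GAP1, the general amino acid permease, was at 26.9 FPKM in set1∆ and 23.3 in set1∆ set5∆, against 12.0 FPKM in the wild type. AGP1, a broad permease, was at 45.8 FPKM in set1∆, against 28.7 in the wild type, and STP1, a transcription factor of the sensing pathway, at 65.8 FPKM in set1∆, against 43.1 in the wild type. The permeases that take up branched-chain amino acids did not share a direction in set1∆. GAP1 (1.10), AGP1 (0.65) and BAP3 (0.17) were above 0, while BAP2 and TAT1 were the 2 genes of the list that were lower. BAP2 was at 210 FPKM in set1∆, against 276 FPKM in the wild type (-0.39), and TAT1 at 218 FPKM in set1∆, against 296 FPKM in the wild type (-0.44).

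Of the threonine supply genes, HOM6, homoserine dehydrogenase, was at -0.50 in set1∆ and -0.44 in set1∆ set5∆. THR1, homoserine kinase, was at -0.35 in SET5 Y402A and at -0.3212 in set1∆, just short of the unrounded limit of 0.3219. The other 3 of the 5 genes did not pass the limit in any mutant over the wild type. CHA1, the threonine deaminase used in breakdown, was at 478 FPKM in set1∆ and 502 in set1∆ set5∆, against 736 in the wild type. In the Ehrlich pathway, which turns amino acids into fusel alcohols, 1 of 8 genes was higher and 2 lower in set1∆. In set1∆ set5∆ 3 were higher and 2 lower, and none passed in set5∆ or SET5 Y402A. Of all features 16.3% were higher and 10.4% lower in set1∆, and 18.6% and 12.8% in set1∆ set5∆. The shares were 9.88% and 5.55% in SET5 Y402A and 6.31% and 3.64% in set5∆. They stand beside the other counts of this paragraph too. The decarboxylase gene ARO10 was at -0.43 in set1∆ and -0.69 in set1∆ set5∆, and PDC6, a scarce pyruvate decarboxylase gene, at 5.09 FPKM in set1∆ and 5.83 FPKM in set1∆ set5∆, against 1.04 FPKM in the wild type. THI3, a decarboxylase-like regulator of thiamine genes, was at -0.42 in set1∆ and -0.45 in set1∆ set5∆. The alcohol dehydrogenase gene SFA1 (0.37) and the decarboxylase gene PDC5 (0.34) passed the limit in set1∆ set5∆. Assembly genes for iron-sulfur clusters, which Leu1 and Ilv3 need, had 0 of 12 past the limit in set1∆ and 1 in set1∆ set5∆, GRX5 at -0.35. In SET5 Y402A NAR1 (-0.49) and ISU1 (-0.34) passed. In that comparison 10 of 12 were below 0, as were 3354 of all 6541 features and 1103 of the 1805 abundant ones.

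Other amino acid synthesis genes did not share the lower medians of set1∆ and set1∆ set5∆. Over 45 genes of arginine, histidine, lysine, aromatic, serine, asparagine and proline synthesis the median was 0.07 in set1∆ over the wild type, with 11 higher and 3 lower, beside 16.3% and 10.4% of all features. It was 0.06 in set1∆ set5∆, with 11 higher and 4 lower, beside 18.6% and 12.8%. It was -0.07 in set5∆ and -0.14 in SET5 Y402A. In SET5 Y402A the median of the 10 branched-chain genes was also -0.14. ARG3 (0.90), ARG1 (0.72) and HIS4 (0.71) were the highest of the 45 genes in set1∆. In the wild type they were at 5.99, 37.0 and 61.9 FPKM, below each of the 10 branched-chain genes. Abundant features, which include all 10 branched-chain genes, had medians of -0.09 in set1∆ and -0.13 in set1∆ set5∆. Of them 7.04% were higher and 13.9% lower in set1∆, and 7.53% and 20.8% in set1∆ set5∆. The lists thus differ in abundance as well as pathway, and the part of each was not tested.

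**Figure D5:**
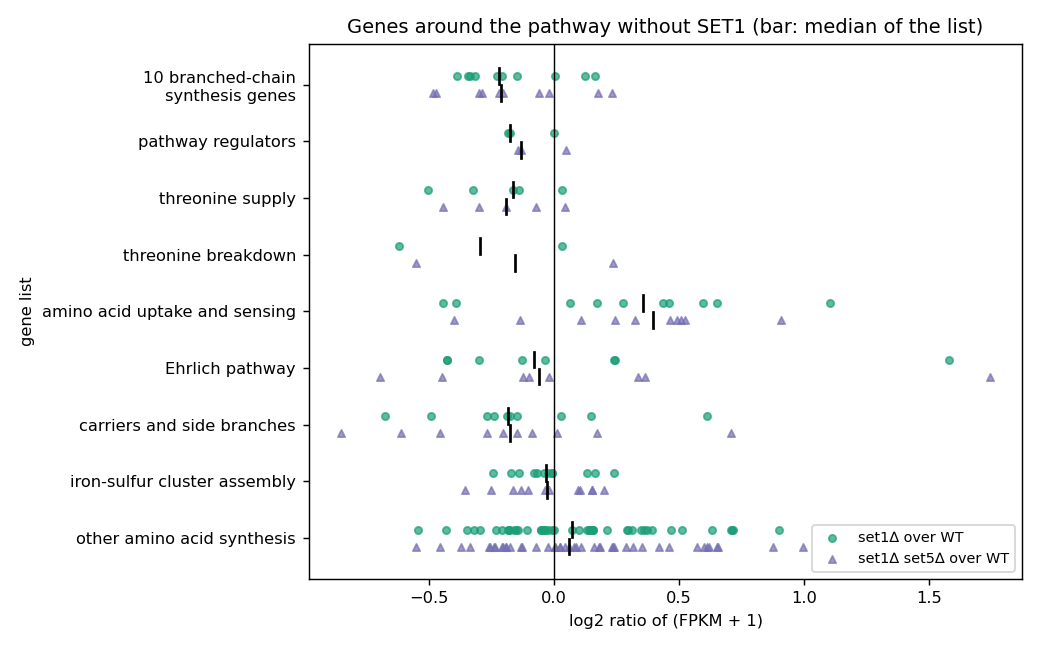
Log2 ratios of FPKM + 1 in set1∆ and set1∆ set5∆ over the wild type for single genes (points) of the 10 branched-chain genes and 8 surrounding lists, with the list median as a black bar. The branched-chain genes have medians of -0.22 and -0.21, and the uptake and sensing list has medians of 0.36 and 0.40.

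For the genes whose highest strain was at least 1.5 times their lowest, BAT1 and LEU1, the closest profiles were sought among 5278 coding genes averaging 10 FPKM or more, with a value above 0 in each of the 5 strains. Likeness was the Euclidean distance between log2(FPKM + 1) values centred on their mean over the 5 strains. Closest to BAT1 was SER3 (distance 0.18), a serine synthesis gene, at 41.5 FPKM in set1∆, 72.3 in set5∆, 46.4 in set1∆ set5∆, 68.4 in SET5 Y402A and 53.1 in the wild type. DSE1 (0.21), a daughter-cell gene, and YMR090W (0.21) followed. Closest to LEU1 was VPH2 (0.030), an assembly gene of the vacuolar ATPase, at 47.3 FPKM in set1∆, 58.9 in set5∆, 39.1 in set1∆ set5∆, 62.3 in SET5 Y402A and 56.1 in the wild type, followed by IGO2 (0.054) and TPP1 (0.057). The closest profile to LEU1 was nearer than the closest to BAT1. Among the 10 genes the closest pair was BAT2 and ILV2, at 0.16. With 5 points per profile among 5278 candidates, likeness is a description only.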

How the data were processed

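RNA from 5 strains (10 libraries, 2 per strain) was purified with a MasterPure kit and 8 µg of it entered a TruSeq RNA v2 preparation, per the labels' protocols. Such libraries carry no strand information. The authors deposited 1 table with 1 column per strain, which is read here as the authors' FPKM, since the header names no unit, the values are decimals and the columns sum to between 2056298 and 2426410. TopHat2 2.0.5, Cufflinks 2.0.2 and Cuffdiff, beside FastQC and R 2.15.1, appear in the submitters' processing notes without their roles. No source used here says how replicates were combined, how strains were scaled, or which genome build and annotation were used. The table had 0 unused columns, and 0 of the 10 genes were listed at 0.

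Ratios were computed with Python 3.11.15 and pandas 2.3.3 after adding 1 FPKM, over features averaging 1 FPKM or more. Counts use a log2 limit of 0.32. Features were matched to R64 names by locus tag (5934) or symbol (30), and 699 had no match. Sequences were read with Biopython 1.88 from the R64 genome at R64's own annotated genes. Counting was tested on simulated data. Named genes were the 10 members, LEU2, SET1, SET5 and the 5 genes on each side of SET1 and SET5. Added to them were up to 4 genes per list and mutant past that limit and the 3 closest profiles of members spanning at least 1.5-fold. Other list genes and the sequence shown for OAC1 were chosen after values were seen. The members and lists were chosen with earlier results of these data known. Alternatives tried were another pseudocount or none, other filters on low values, columns scaled to the same sum, centring, quantile normalization and leaving out BAT1.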

Additional observations from a re-analysis of the deposited data

How the results depend on the processing

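The table gives 1 combined value per strain, so leaving out a replicate could not be run, and depth is unknown. No paired analysis was possible because the replicates have no columns of their own. A value without a call is said to have moved when it changed by more than 0.1 on the log2 scale, a tolerance set here in place of a replicate spread. Of the alternative values of the medians, counts, the BAT1 ratio and the interaction, 146 stayed and 12 moved. Medians, the BAT1 ratio and the interaction stayed when within that range or on their side of the call limit. Counts, which pool higher and lower genes, stayed when their total changed little, whichever genes made it up. In set1∆ set5∆ over WT the count thus stayed with columns scaled to the same sum, although ILV1 and ILV5 had replaced LEU1 and ILV3 in it. No value past the limit of 0.32 changed sign. Changes of the pseudocount or the filter on low values moved none of these main results. Of the other single-gene ratios and interactions, tallied apart, 639 stayed, 44 moved, 18 lost their call and 10 gained one. With columns scaled to the same sum the medians moved to -0.11 in set1∆ over WT, -0.0060 in set1∆ set5∆ over WT and 0.018 in set1∆ set5∆ over set5∆, the interaction to 0.17, and the count in set1∆ over WT to 0. That scaling moves the median of all features by 0.10 in set1∆ over WT, 0.20 in set1∆ set5∆ over WT and 0.23 in set1∆ set5∆ over set5∆. With quantile normalization the count became 0 in set1∆ over WT and 5 in set1∆ set5∆ over set5∆. That 5 pools ILV1 and ILV5, which were higher, with lower genes, beside 15.7% of all features higher and 16.1% lower. Without BAT1 the count in set5∆ over WT was 0 by construction. Centring on the abundant features, added after the values were seen, gave medians of -0.084 in set1∆ set5∆ over WT and -0.075 in set1∆ set5∆ over set5∆. The counts were then 0 in set1∆ over WT and 5 in set1∆ set5∆ over set5∆. Beside that 5, 14.6% of abundant features were higher and 11.9% lower. Which scaling fits these strains was not tested. The BAT1 ratio in set5∆ over WT stayed past the limit under all alternatives run, between 0.43 and 0.47.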

Other observations

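The stricter Leu3 letters CCGGNNCCGG stood in the 500 bases before 16 coding genes, of which 12 are not among the 10 described above. LEU2, deleted in these strains, is one of them, at 0.368 FPKM in set1∆ and 0.510 FPKM in the wild type. BAP2, the branched-chain amino acid permease, is another, at 210 FPKM in set1∆, 330 in set5∆, 252 in set1∆ set5∆, 332 in SET5 Y402A and 276 in the wild type. GDH1, the NADP glutamate dehydrogenase that supplies glutamate to the transaminases, was at 390 FPKM in set1∆, 428 in set5∆, 366 in set1∆ set5∆, 397 in SET5 Y402A and 441 in the wild type. The remaining genes lay on both sides of 0 in set1∆ over WT. On the log2 scale GAT1 was at 0.35, ATP5, a subunit of ATP synthase, at 0.29, MGM101 at 0.29 and BRO1 at 0.26. FSF1, a mitochondrial inner membrane protein gene, was at -0.38 and NPL3 at -0.29. This set was looked at after the values of the 10 genes were known, and windows of 500 bases can reach into a neighbouring gene or its own upstream region.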
